A study of Mus musculus with 6 samples.

Results

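Genes of the fibroblast matrix and of contractile mural cells were examined in cultured cortical cells of Fmr1-KO and WT mice. The group held 10 genes, Mfap4, Postn, Dcn, Lum, Ogn, Fn1, Lox, Thbs1, Acta2 and Tagln, which were 10 of the 55367 named rows of the count table. Mfap4 was chosen by its fold-change between the genotypes in these same libraries, so its difference is given as a description with no test. The other 9 genes were picked for their function, as fibroblast or contractile genes, with earlier results of these libraries known. Of 2534 called increases whose libraries did not overlap and whose mean reached 10 CPM (a gene's counts relative to the library total, scaled by the TMM method of edgeR), Mfap4 ranked 5 by its log2 fold-change of 1.33. Deup1, which ranked 6 and was not picked, had 1.26.

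RNA-seq was done on cells of the cerebral cortex of C57BL/6J pups at postnatal day 1 (P1), plated on laminin and poly-L-lysine and kept in a serum-free neuronal medium (Neurobasal with B27 Plus) until 2 days in vitro. There were 3 WT libraries and 3 libraries of Fmr1-KO, a mouse model of fragile X syndrome in which the gene of the RNA-binding protein FMRP is knocked out. The labels give no sex and no further allele or agent for either genotype. According to the methods, the dissociated cells were passed through a strainer that removes blood vessels and clumps, and were depleted of astrocytes and myelin with antibody-coated beads before plating. The samples are described as derived independently, but the labels name no litter or culture for a library, so P values measure the spread between these 6 libraries only.

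Library totals ran from 30348556 to 35126207 counts, and 16976 genes passed the filter on low counts. Fmr1 was at 109.6 to 118 CPM in WT and at 54.2 to 61.4 CPM in Fmr1-KO, so every library went with its label, although the transcript was still detected in Fmr1-KO. Markers of several cell types were present in these cultures labelled as cortical neurons. The neuronal marker Dcx was at 1253 CPM and the astrocyte marker Gfap at 2649 CPM in WT. The 8 endothelial markers that were tested had means from 0.403 (Emcn) to 7.27 CPM (Kdr) in WT, with Pecam1 at 0.796 and Cdh5 at 2.54 CPM, and Cldn5, Tek, Tie1 and Ly6c1 had too few counts to be tested.

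In brain, fibroblasts lie in the meninges and along larger vessels, and mural cells, which are pericytes and smooth muscle cells, wrap the vessel wall. Fibroblasts secrete collagens, proteoglycans and glycoproteins, and enzymes outside the cell cross-link these into fibres. Smooth muscle cells and activated fibroblasts also build contractile fibres of smooth muscle actin and its partners. The transcription factor SRF drives many contractile genes together with myocardin-family coactivators, and TGF-beta is a well-known inducer of both matrix and contractile genes. Fibronectin, thrombospondin-1 and smooth muscle actin are not specific to 1 cell type and can also be made by astrocytes and other cells in culture.

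Of the 9 genes other than Mfap4, 7 were called higher and 2 were called lower in Fmr1-KO than in WT by edgeR, with an adjusted P under 0.05 over all genes tested. Across all genes tested, 20.7% were called higher and 21.9% lower, together 42.6%. The median log2 fold-change of these 9 genes was 0.57, against 0.01 over all genes tested. The increases covered both contractile genes, the 3 large glycoproteins Fn1, Thbs1 and Postn, the cross-linking enzyme Lox and the proteoglycan Ogn. The decreases were those of Dcn and Lum, which belong to the same proteoglycan family as Ogn. In all 9 genes the 3 libraries of one genotype lay apart from the 3 of the other, which was so for 51.7% of all genes tested. The libraries of Mfap4 lay apart too, but that gene had been picked by its fold-change. All 10 genes of the group passed the filter on low counts, with 167 to 11442 counts in every library, so none passed through 1 genotype alone. In bulk RNA, fewer cells of a type and less RNA per cell cannot be told apart.

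**Figure D1:**
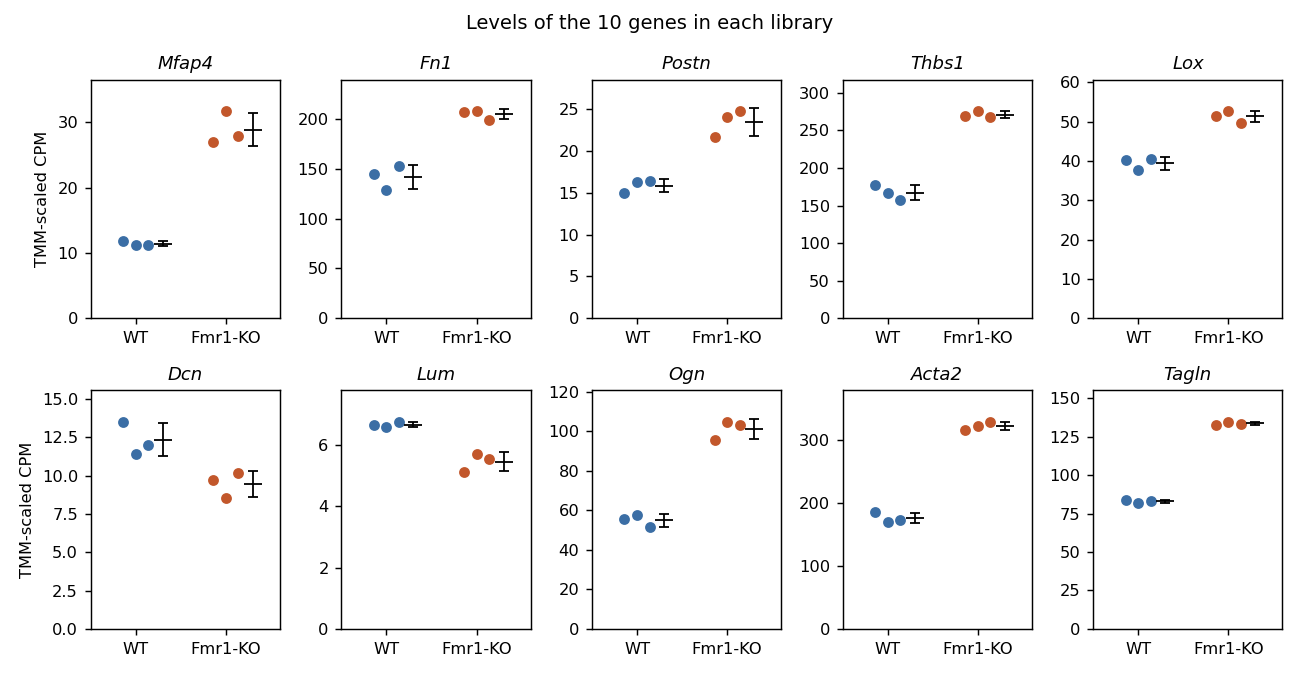
TMM-scaled CPM (vertical axes, each starting at 0) of the 10 genes in the 3 WT (blue) and 3 Fmr1-KO (orange) libraries, with the mean and SD of each genotype in black. Mfap4 lay at 11.2 to 11.9 CPM in WT and at 26.9 to 31.8 CPM in Fmr1-KO, while Dcn and Lum were the 2 genes with every Fmr1-KO library below every WT library.

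Summed over the 10 genes, the level was 709 ± 23.4 CPM in WT and 1151 ± 16.8 CPM in Fmr1-KO (SD, n = 3 per genotype). The 4 most abundant genes, Acta2, Thbs1, Fn1 and Tagln, made up 80.2% of this sum in WT and 80.9% in Fmr1-KO. The sum therefore follows these genes and says little about Dcn or Lum. Without Acta2 the sums were 533 ± 15.3 and 829 ± 15.5 CPM (SD, n = 3 per genotype).

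The contractile genes both rose in Fmr1-KO. Acta2 encodes smooth muscle actin and lies on the minus strand of chromosome 19 from 34241090 to 34255590 (GRCm38). It was at 186, 170.0 and 173 CPM in the WT libraries and at 316, 321 and 329 CPM in the Fmr1-KO libraries. The lowest Fmr1-KO library was 1.70 times the highest WT library. The log2 fold-change of Acta2 was 0.87 (SE 0.03; adjusted P 3.51e-14 by edgeR). Tagln encodes transgelin, an actin-binding protein of smooth muscle, and lies on the minus strand of chromosome 9 from 45929619 to 45936058. It was at 83.8, 82.1 and 83.5 CPM in WT and at 133, 135 and 134 CPM in Fmr1-KO. Its libraries differed by a coefficient of variation of 1.11% in WT and 0.886% in Fmr1-KO, the smallest in the group in both genotypes. The log2 fold-change of Tagln was 0.69 (SE 0.03; adjusted P 5.55e-13 by edgeR).

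The promoter of Acta2 is shown because this gene was the most abundant of the group and SRF binds it at sites named CArG boxes. A CArG box is a run of 10 bases with a core of 6 A or T bases, and reads as the same pattern on both strands. In the window from 250 bases before to 50 bases after the RefSeq start (GRCm38.p6), Acta2 had no such box, but it had 2 boxes with 1 G or C in the core. They start 84 and 34 bases before that start, at chr19:34255438-34255467 and chr19:34255388-34255417 on the minus strand for the stretches printed here. The GENCODE gene model starts further upstream, so both stretches lie in an annotated exon there, outside the coding sequence. Capitals mark the box:
Acta2 box at 84 bases before the start: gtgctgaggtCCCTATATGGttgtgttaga
Acta2 box at 34 bases before the start: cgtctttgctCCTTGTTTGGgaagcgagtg
Of 32851 RefSeq promoter windows of this length, 1.63% held a CArG box and 8.50% held one with 1 G or C in the core. The windows of Postn and Ogn held neither, which says only that these letters are not in these windows. The other 7 genes were not matched in the promoter table.

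Other contractile genes of smooth muscle mostly moved in the direction of Acta2 and Tagln. Of 15 listed genes, 14 were tested, 12 were called higher and 0 lower by edgeR, with a median log2 fold-change of 0.50. An adjusted P of 0.05 was missed by Acta1 and Mylk, with log2 fold-changes of -0.25 and 0.04. Myh11, the smooth muscle myosin heavy chain, was at 1.14 ± 0.341 CPM in WT and rose to 2.07 ± 0.258 CPM (SD, n = 3), and Tpm1, a tropomyosin and the most abundant of the list, rose from 145 to 173 CPM. Actg2 and Actc1, muscle actins close in sequence to Acta2, had log2 fold-changes of 1.76 and 1.50 at means of 1.39 and 0.479 CPM. Reads shared between near-identical actins may be split or dropped in counting, so these low values are uncertain. With a filter of 5 CPM, 6 genes of the list were called higher and the median was 0.31.

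The 6 non-muscle relatives listed for Acta2 and Tagln had a median log2 fold-change of 0.08. Actb, a cytoplasmic actin and the most abundant of them, was at 2251 CPM in WT and 2173 CPM in Fmr1-KO (difference of -0.05 on the log2 scale; adjusted P 0.200 by edgeR). Per kilobase of exon, Acta2 was at 0.0933 to 0.0996 of Actb in the WT libraries and at 0.173 to 0.190 of it in the Fmr1-KO libraries. Of these relatives, Cnn2 and Cnn3, calponins found outside muscle, were called higher (0.34 and 0.22). With library totals alone in place of TMM, 4 of the 6 were called higher. The list of SRF, myocardin-family and related factors had 6 tested genes. Mrtfa and Mrtfb of the myocardin family were not called (-0.04 and -0.10), and Myocd, the gene of myocardin, had too few counts to be tested. Fhl2, a cofactor of such factors, was called lower (-0.54) and Fhl1, a muscle LIM protein, higher (0.09). The call of Fhl1 was lost, with 0 genes called higher, when replicate 2 or 3 of either genotype was left out. When replicate 2 of either genotype was left out, 2 genes of this list were called lower. Srf itself, singled out after its value was seen, showed a log2 difference of 0.09 (edgeR adjusted P 0.150).

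Mfap4 encodes a glycoprotein that binds the microfibrils and elastin of elastic fibres. The gene lies on chromosome 11, plus strand, from 61485431 to 61488900 (GRCm38). It was at 11.9, 11.2 and 11.2 CPM in the WT libraries and at 26.9, 31.8 and 27.9 CPM in the Fmr1-KO libraries. The lowest Fmr1-KO library was 2.27 times the highest WT library. The mean in Fmr1-KO was 2.53 times that in WT, and the log2 fold-change was 1.33 (SE 0.07). It lay 44 from the top by log2 fold-change among all genes tested, whatever their level.

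Other genes of elastic fibres and microfibrils were mostly higher too. Of 17 listed genes, 12 were called higher and 1 lower by edgeR, with a median log2 fold-change of 0.27. Eln, which encodes elastin itself, rose from 75.1 ± 2.19 to 124 ± 1.56 CPM (SD, n = 3), which is 0.72 on the log2 scale (SE 0.03; adjusted P 6.87e-13 by edgeR). Ltbp2, a microfibril protein named for the latent TGF-beta binding protein family, and Efemp1, a fibulin, had log2 fold-changes of 0.83 and 0.77. The gene called lower was Fbn2, a fibrillin, at -0.29, while its relative Fbn1 was called higher at 0.33; both were named after their values were seen.

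Of the 3 large glycoproteins, all were higher in Fmr1-KO. Fn1 encodes fibronectin, which assembles into fibrils that cells grip through integrins, and lies on the minus strand of chromosome 1 from 71585520 to 71653200. It was at 145, 128 and 153 CPM in WT and at 207, 208 and 199 CPM in Fmr1-KO. The WT libraries of Fn1 were more spread than those of Fmr1-KO, with coefficients of variation of 8.80% and 2.41%. Every Fmr1-KO library was nonetheless above every WT library. Fn1 rose by 0.53 on the log2 scale (SE 0.04; edgeR adjusted P 4.14e-09).

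Thbs1 encodes thrombospondin-1, a matricellular protein that signals to cells from the matrix and, when made by astrocytes, promotes synapse formation. It lies on the plus strand of chromosome 2 from 118111876 to 118127133. Thbs1 was at 178, 167 and 157 CPM in WT and at 269, 276 and 268 CPM in Fmr1-KO, and the lowest Fmr1-KO library was 1.51 times the highest WT library. On the log2 scale Thbs1 rose by 0.69 (SE 0.04; edgeR adjusted P 3.60e-12). Postn encodes periostin, a matricellular protein of fibroblasts that helps collagen assembly, on the plus strand of chromosome 3 from 54361109 to 54391037. It was much less abundant, at 14.9, 16.2 and 16.4 CPM in WT and at 21.6, 24.0 and 24.8 CPM in Fmr1-KO. The lowest Fmr1-KO library was 1.32 times the highest WT library. The log2 fold-change of Postn was 0.57 (SE 0.06; adjusted P 3.56e-07 by edgeR).

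Other matricellular proteins did not share 1 direction. Of 14 listed genes, 13 were tested, 6 were called higher and 5 lower by edgeR. The median of 0.14 was 0.00 without Fmr1-KO replicate 2 and 0.04 with DESeq2 or with WT replicate 1 left out. Sparc, the most abundant of them on the mean over both genotypes, rose from 449.8 to 520.1 CPM, and Sparcl1, a related protein of astrocytes, fell from 538 to 327 CPM. Ccn3 and Spp1 (osteopontin) fell with log2 fold-changes of -1.61 and -0.68. Of 13 integrins and related receptors of these matrix proteins, 4 were called lower, 1 higher and 8 were not called. Cd36 and Cd47, which both bind thrombospondin-1, fell with log2 fold-changes of -1.14 and -0.48, and Itga4, an integrin subunit for fibronectin, fell too (-0.31). Itga5, another integrin subunit for fibronectin, named after its value was seen, was not called (0.09; adjusted P 0.219 by edgeR). Itgb1, the shared integrin beta subunit, was at 317 CPM in WT and 326 CPM in Fmr1-KO (adjusted P 0.286 by edgeR). When WT replicate 1 or the third Fmr1-KO library was left out, or under DESeq2, 2 receptors were called lower. The single increase was lost under DESeq2 and when any 1 of WT replicates 2 and 3 or Fmr1-KO replicates 1 and 3 was left out.

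Lox encodes lysyl oxidase, which cross-links collagen and elastin. It lies on the minus strand of chromosome 18 from 52516067 to 52529867. It was at 40.2, 37.6 and 40.6 CPM in WT and at 51.5, 52.8 and 49.8 CPM in Fmr1-KO. These libraries did not overlap, but the increase was the smallest of the group, with a log2 fold-change of 0.38 (SE 0.04; adjusted P 4.13e-07 by edgeR). Of 13 other lysyl oxidases and genes of collagen maturation, 7 were called higher and 1 lower by edgeR. Loxl1 and Loxl2, close relatives of Lox, rose with log2 fold-changes of 0.53 each, and Serpinh1, the collagen chaperone and the most abundant of the list, rose from 232 to 302 CPM. Without Fmr1-KO replicate 3, 4 of these genes were called higher, and without Fmr1-KO replicate 1, 0 were called lower.

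**Figure D2:**
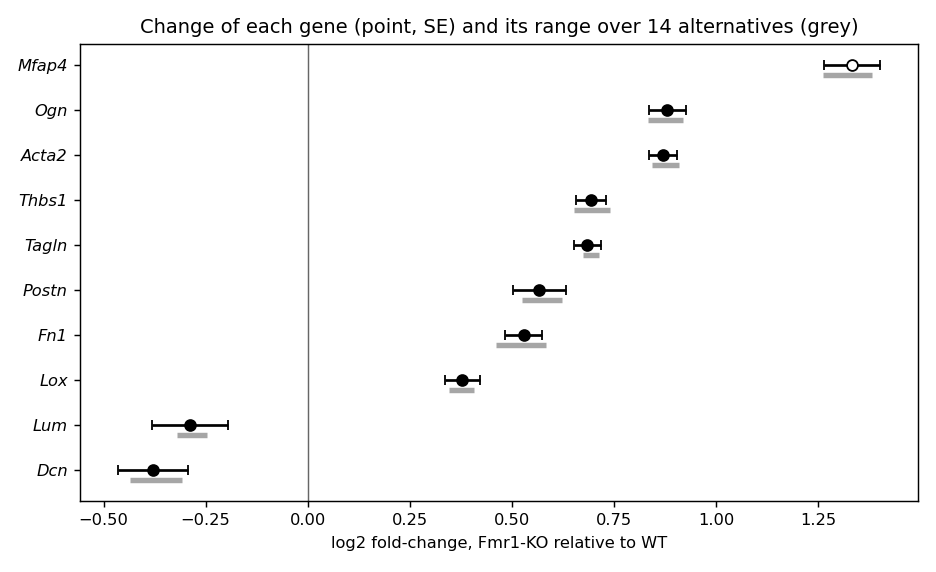
Log2 fold-change in Fmr1-KO relative to WT (horizontal axis) of each gene, as a point with its SE; the open point of Mfap4 was not tested, and grey bars span the values under 14 alternative settings. The 8 increases ran from 0.38 for Lox to 1.33 for Mfap4, and the bars of Dcn and Lum stayed below 0.

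The small leucine-rich proteoglycans of the group differed in direction. These secreted proteins bind collagen and control how its fibrils form. Dcn encodes decorin, on the plus strand of chromosome 10 from 97479609 to 97518143. It was at 13.5, 11.4 and 12.02 CPM in WT and at 9.69, 8.53 and 10.2 CPM in Fmr1-KO. Its ranges were narrowly apart, with the highest Fmr1-KO library at 0.890 of the lowest WT library. The log2 fold-change of Dcn was -0.38 (SE 0.08; adjusted P 0.00101 by edgeR).

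Lum encodes lumican and lies 47.0 kb further along the same strand of chromosome 10, from 97565128 to 97572703. It was the least abundant of the group in CPM, at 6.65, 6.59 and 6.77 in WT and at 5.14, 5.72 and 5.55 in Fmr1-KO. The highest Fmr1-KO library was at 0.867 of the lowest WT library. On the log2 scale Lum fell by 0.29 (SE 0.09; edgeR adjusted P 0.0166). The call of Lum was lost under DESeq2 (adjusted P 0.0761) and in edgeR without Fmr1-KO replicate 1 (log2 fold-change -0.25, adjusted P 0.0689). Over all alternatives its adjusted P by edgeR or DESeq2 reached up to 0.685, with a minimum fold change of 1.2 required.

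Ogn encodes osteoglycin, or mimecan, and lies on the plus strand of chromosome 13 from 49608046 to 49624501. It was at 55.8, 57.7 and 51.3 CPM in WT and at 95.5, 105 and 103 CPM in Fmr1-KO. All Fmr1-KO libraries were thus at least 1.65 times every WT library. The log2 fold-change of Ogn was 0.88 (SE 0.04; adjusted P 1.78e-12 by edgeR). Per kilobase of exon, Ogn was at 9.38 to 11.5 times Dcn in the WT libraries and at 22.4 to 28.0 times Dcn in the Fmr1-KO libraries. The ratio of Lum to Dcn overlapped between genotypes, at 1.17 to 1.38 in WT and 1.26 to 1.60 in Fmr1-KO.

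Other genes of the same family lie near these proteoglycans on the chromosome, and Cenpp, a centromere protein gene of another family, overlaps Ogn on the opposite strand. Beside Dcn and Lum, within 203 kb on chromosome 10, lie Kera and Epyc, which had 12 and 10 counts over all 6 libraries and were not tested. Beside Ogn, within 120 kb on chromosome 13, lie Aspn, Omd and Ecm2. Aspn was called higher (log2 difference 0.97, edgeR adjusted P 0.0310) on 67 counts over the 6 libraries. Omd and Ecm2 had log2 differences of 0.32 and 0.21 (adjusted P 0.0865 and 0.209 by edgeR). These neighbours were looked up after the values of the group had been seen. Of the 12 other family members listed, 9 were tested, 5 were called higher and 1 lower. Fmod (fibromodulin) rose (log2 fold-change 0.69) and so did Optc (opticin; 0.65), while Bgn (biglycan), the closest relative of Dcn and the most abundant of the list, fell from 80.7 to 67.3 CPM. With a filter of 5 CPM, 3 were called higher.

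To compare levels between genes, CPM were divided by exon length in kilobases, giving RPKM. In WT, Acta2 stood highest at 80.2 ± 3.79 RPKM, followed by Tagln (41.8), Thbs1 (27.5), Ogn (21.4), Fn1 (12.1), Lox (8.26), Mfap4 (5.95), Lum (2.72), Dcn (2.11) and Postn (1.82 ± 0.0923; SD, n = 3). No neighbours in this order overlapped between libraries. In Fmr1-KO the first 5 places were the same, with Acta2 at 147 ± 2.97 RPKM. Below them Mfap4 (15.0) stood above Lox (10.7), and Postn (2.70) above Lum (2.23) and Dcn (1.62 ± 0.145; SD, n = 3), again with no overlap between neighbours. Acta2 was 44.0 times the lowest gene in WT and 90.5 times the lowest in Fmr1-KO. Exon length here is that of all annotated exons joined, so genes with rarely used exons, such as Postn or Fn1, may have RPKM that are too low.

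**Figure D3:**
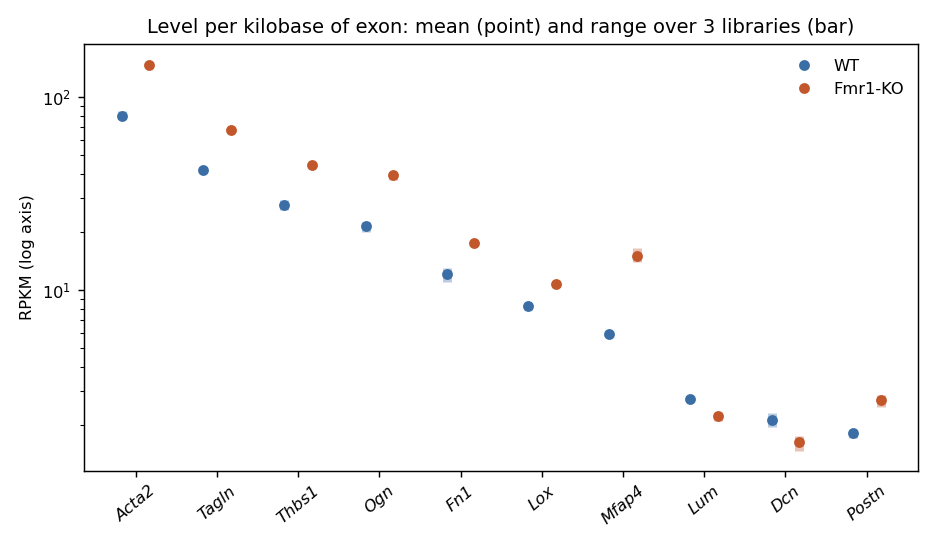
RPKM on a log axis of the 10 genes, ordered by their level in WT, as means (points) and ranges over 3 libraries (bars) in WT (blue) and Fmr1-KO (orange). Acta2 was at 80.2 RPKM in WT and 147 in Fmr1-KO, and Mfap4 and Postn were the genes whose place in the order moved up.

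Within a genotype, no library was the highest for all 10 genes, but some stood high or low for many of them. Coefficients of variation ran from 1.11% to 8.80% in WT and from 0.886% to 8.95% in Fmr1-KO. WT replicate 1 was the highest WT library for 5 genes, WT replicate 3 for 4 and WT replicate 2 for 1, and WT replicate 2 was the lowest for 6. Fmr1-KO replicate 2 was the highest Fmr1-KO library for 7 genes and Fmr1-KO replicate 3 for 3. Fmr1-KO replicate 1 was the lowest for 6 genes and the highest for 0, while Dcn had its lowest value in Fmr1-KO replicate 2.

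Listed markers of fibroblasts and mural cells changed in both directions, and some of them also mark other cells. Of 14 fibroblast markers, 5 were called lower and 3 higher by edgeR, with a median log2 fold-change of -0.07. This median was -0.23 with a filter of 5 CPM, and leaving out Fmr1-KO replicate 1 or Fmr1-KO replicate 2 gave -0.14 or -0.04. Slc6a13, a transporter of meningeal fibroblasts, and Pdgfra, a receptor of fibroblasts and oligodendrocyte precursors, fell (log2 fold-changes of -0.66 and -0.45). Col1a1 and Col3a1, 2 fibrillar collagens of fibroblasts, named after their values were seen, both fell (log2 fold-change -0.28 each). Col1a2 of the same list overlapped between genotypes and was not called (-0.07; adjusted P 0.189 by edgeR). Igf2 (0.44) and Prrx1 (0.38) rose, as did Vim, which also marks radial glia, from 1203 to 1402 CPM. The summed level of the list was 1777 to 1844 CPM in WT and 1920 to 1947 CPM in Fmr1-KO, most of it Vim.

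Of 11 pericyte and smooth muscle markers, 10 were tested, 5 were called lower and 2 higher by edgeR, with a median log2 fold-change of -0.46. The median was -0.65 with DESeq2 and -0.27 with a filter of 5 CPM, and 1 gene was called higher without Fmr1-KO replicate 3. Rgs5 and Abcc9, 2 defining pericyte genes, fell (log2 fold-changes of -0.91 and -1.14), as did Vtn (-0.89). Pdgfrb, the PDGF receptor of mural cells and the most abundant of the list, rose from 46.9 to 65.1 CPM (0.47). The summed level of the list overlapped between genotypes, at 176 to 185 CPM in WT and 168 to 184 CPM in Fmr1-KO. Of 8 tested endothelial markers, 3 were called higher and 1 lower, and 0 were called lower without WT replicate 1. Kdr rose from 7.27 to 17.1 CPM (1.23) and Slco1a4 from 4.75 to 6.46 CPM, while Cdh5, the cadherin of endothelial junctions, fell (log2 fold-change -0.66). The sum of the endothelial list was 18.3 to 22.4 CPM in WT and 31.0 to 31.9 CPM in Fmr1-KO, and Kdr made up most of the difference.

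**Figure D4:**
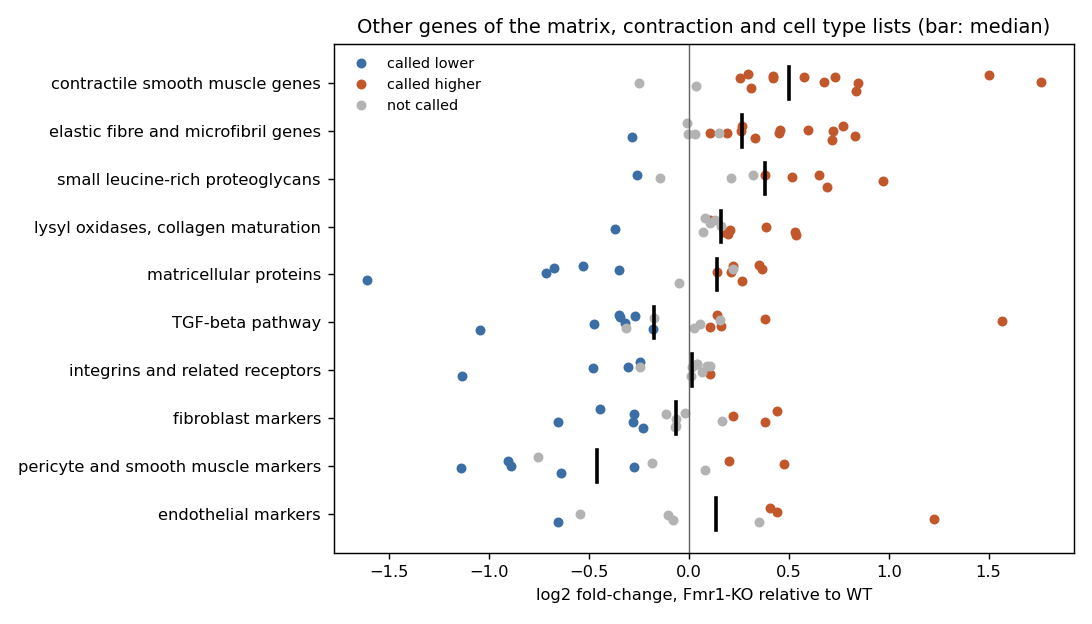
Log2 fold-change in Fmr1-KO relative to WT (horizontal axis) of each tested gene of 10 related lists, in orange where called higher, blue where called lower and grey where not called, with the list's median as a black bar. Contractile genes had 12 of 14 points in orange, while pericyte and smooth muscle markers had 5 of 10 in blue.

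Genes of the TGF-beta pathway did not share 1 direction. Of 17 genes, 7 were called lower and 5 higher by edgeR, with a median log2 fold-change of -0.18, which was -0.11 without WT replicate 1 and 0.04 with a filter of 5 CPM. Smad7, an inhibitor of the pathway, fell (log2 fold-change -0.48). Acvrl1, a receptor of endothelial cells, fell from a low level of 1.65 to 0.794 CPM (-1.05). Among the 5 called higher were Tgfb3 (0.38), Tgfbr1 (0.16), Smad2 (0.14) and Smad4 (0.11), named after their values were seen. Ski, a repressor of SMAD factors and the most abundant of the list, fell from 253 to 223 CPM.

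Markers of other cells moved with genotype in the same libraries. Of 12 neuron markers, 10 were called lower and 2 higher, with a summed level of 5338 to 5481 CPM in WT and 4501 to 4709 CPM in Fmr1-KO. Nefl, Nefm and Gap43, genes of axons, fell (log2 fold-changes of -1.90, -1.35 and -0.97). The 2 increases were those of Elavl4 (log2 fold-change 0.41) and of Dcx, a marker of immature neurons (log2 fold-change 0.08). When WT replicate 1, the third WT library or the third Fmr1-KO library was left out, 1 neuron marker was called higher. Of 10 microglia markers, 9 were called lower, C1qb (-1.13), C1qc (-1.08), Aif1 (-1.07) and C1qa (-1.05) among them, and their sum was 239 to 264 CPM in WT and 135 to 153 CPM in Fmr1-KO. All 10 proliferation markers were called higher, led by Mki67 (1.09), Top2a (0.86) and Bub1 (0.71), with sums of 593 to 626 and 1002 to 1060 CPM.

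Astrocytes and radial glia showed changes in both directions. Of 10 astrocyte markers, 5 were called lower and 3 higher, with sums of 5294 to 5422 CPM in WT and 4691 to 5068 CPM in Fmr1-KO. S100b, Aqp4 and Gfap fell (log2 fold-changes of -0.94, -0.72 and -0.21), and Gja1, a gap junction gene, rose (log2 fold-change 0.30). Of 9 radial glia markers, 4 were called higher and 1 lower, and leaving out Vim and Tnc, which are also in other lists, 2 were called higher. Pax6 and Nes rose (log2 fold-changes of 0.52 and 0.28), and Hopx fell (log2 fold-change -0.40). The part of these other cells in the levels of the 10 matrix and contractile genes was not tested.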

How the data were processed

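RNA was measured in 6 libraries (TruSeq Stranded mRNA), grouped by labelled genotype. The deposited table held raw counts for each gene name, not normalized by the authors. Their methods name FastP for trimming, STAR for alignment to GRCm38.p6, and featureCounts for assigning reads to exons on the reverse strand. The processing notes give STAR 2.7.6a and Subread 2.0.1, while the methods give another version of Subread. Counting by strand separates the members from genes on the opposite strand, but near-identical copies are not resolved.

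The test was edgeR 4.0.16 in R 4.3.3 (filterByExpr, TMM, glmQLFit, glmQLFTest), 2-sided, on a design of genotype alone; P values were adjusted by Benjamini-Hochberg over all 16976 tested genes, and a call needed an adjusted P under 0.05. The study used DESeq2, here version 1.42.0, as an alternative. Other alternatives were RLE, upper-quartile and total-count scaling, no filter, a stricter filter (at least 10 counts and 5 CPM), the replicate number as a block, dropping 1 library at a time, and a required fold change of 1.2. The SE is the log2 fold-change divided by the square root of F. Gene models and exon lengths were those of GENCODE M21, which held 98.6% of tested names. The methods name other GENCODE releases for the counts. Promoters came from RefSeq.

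The members and the 17 gene lists were chosen with earlier results of these data known. From each list, the 3 called genes with the largest changes and the most abundant gene were named; 1 gene so selected is not reported here. Replicate numbers were not taken to pair the libraries. The labels do not say whether same-numbered libraries shared a litter or culture, and a shared effect on some genes was not tested.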

Additional observations from a re-analysis of the deposited data

How the results depend on the processing

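Of 154 log2 fold-changes recomputed for the 10 members (Mfap4, which was chosen on this contrast, among them) and Fmr1 under 14 alternatives, 150 stayed on their side of the threshold with the direction held, and 4 held their direction but lost the call (3 of Lum and 1 of Dcn). Requiring a fold change of 1.2 left 883 genes called higher and 1340 called lower, as a stricter test calls fewer genes, and 0 members were called lower; Dcn then had an adjusted P of 0.172 by edgeR. Under that setting 6 elastic fibre genes, 3 lysyl oxidase and collagen maturation genes and 1 matricellular gene were called higher. Members called lower numbered 1 under DESeq2, which called 3211 of all genes lower. They numbered 1 to 2 across the fits that each left out 1 library, which called 3300 to 3569 of all genes lower. The cause was not tested. Of the 9 members other than Mfap4, 7 were called higher under each of the 14 alternatives. Scaling by library totals alone moved the median log2 fold-change of all genes by 0.03.

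Same-numbered libraries deviated from their genotype's mean with correlations of -0.07, 0.06 and 0.01, so the numbers were not taken as pairs. The replicate block gave 3694 genes called lower and 3488 higher, with 2 members lower and, leaving out Mfap4, 7 higher. Depth limits the rarest family members, such as Kera and Epyc, to too few counts for a test.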
